A study of Bos taurus with 138 samples.

Results

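The passage from morula to blastocyst was described in whole in vitro produced bovine (Bos taurus) embryos by comparing the 3 blastocyst transcriptome libraries (A, B and C) with the 3 morula transcriptome libraries (A, B and C), which are 6 of the 138 libraries of the series. The other transcriptomes came from germinal vesicle (GV) and metaphase II (MII) oocytes and from 2-cell and 8-cell embryos, again with 3 libraries per stage, and the remaining libraries came from 10 sucrose gradient fractions of 2 gradients per stage. The ovaries came from a slaughterhouse, 1 Holstein bull gave the semen, and embryos were chosen by morphology, treated with cycloheximide before collection and freed of the zona pellucida with protease. Each library was made from mRNA captured and amplified from a pool of whole embryos, with all cell types mixed. The sex of the embryos is not given. No treatment, genotype or age beyond the stage separates the morula group from the blastocyst group. The embryos for transcriptomes and for gradients of a stage came from the same batch by the study's design, but the labels do not say which letters belong together. The model treats the libraries as separate samples. It estimates each gene's spread within the groups of all 30 libraries fitted, with the other stages and 12 pools of polysome fractions included. The p-values measure only that spread, which may be technical. The table held 16706 gene symbols, of which 14612 passed a filter on low counts and were tested.

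In cattle the embryonic genome becomes fully active around the 8-cell stage. The morula then compacts, its outer cells become a polarised epithelium, and fluid pumped across that epithelium opens the cavity of the blastocyst. The outer cells form the trophectoderm, which will build the placenta and in ruminants secretes interferon tau, while the inner cells separate into epiblast, the source of the fetus, and hypoblast, the source of the yolk sac lining. In a whole-embryo library, fewer cells of a type and less RNA per cell cannot be told apart.

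Levels are given as counts per 1000000 counts (CPM) after scaling by trimmed mean of M-values (TMM) factors, so each is a share of the library's counts and not a number of molecules per embryo. Total counts were 8818270 to 10368017 in the morula libraries and 3269385 to 5256286 in the blastocyst libraries, so that 3 counts correspond to between 0.289 and 0.340 CPM of the library total in morulae and between 0.571 and 0.918 CPM in blastocysts. Pearson correlations of log2 CPM across 11139 genes were 0.974 to 0.981 within morulae, 0.955 to 0.978 within blastocysts and 0.804 to 0.844 between the stages. The mitochondrial genome gave 5.35 to 6.49% of the counts in morulae and 19.5 to 23.3% in blastocysts. Among 14 cumulus and granulosa cell markers, the summed level was 35.1 to 40.4 CPM of the library total in morulae and 67.6 to 86.3 CPM in blastocysts, INHA was at 0 in all 6 libraries, and PTX3 and FOXL2 each had counts in 1 library only. The sum of 10 sperm markers was 39.6 to 52.7 CPM in morulae and 29.3 to 45.3 CPM in blastocysts, and that of 9 blood markers was 153 to 182 and 60.3 to 88.3 CPM. The part of these cells in the results was not tested.

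Blastocyst library A stood apart from the other 2 in its oocyte transcripts. The 32 oocyte and maternal effect genes in the table summed to 2930 CPM of the library total in blastocyst A, against 645 CPM in B and 1017 CPM in C, and 28 of the 32 were highest in A, which was the highest of the 3 blastocyst libraries for 35.1% of all genes tested. Morulae held 1260 to 1773 CPM and the GV, MII and 2-cell libraries 43900 to 55650 CPM. In the polysome libraries, morula gradient B held 1383 CPM of these transcripts and morula gradient A 469 CPM.

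Blastocysts differed from morulae in 3163 of the 14612 genes, called where the adjusted p was below 0.05 and the fold above 2. Of these, 1491 (10.2% of the genes tested) rose and 1672 (11.4%) fell, with median log2 fold changes of 2.08 among those that rose and -1.96 among those that fell, against -0.01 over all genes. With the 58 and 51 genes that had no counts in one of the stages set to their bound from 3 counts per library, these medians were 2.01 and -1.90. Changes of more than 8-fold were found for 381 genes that rose and 327 that fell. The 3 values of one stage lay wholly above the 3 of the other in 1447 of the 1491 and in 1662 of the 1672. Over all 14612 genes tested, 3804 lay wholly higher and 4257 wholly lower in blastocysts. Calls and overlap rest on the same 6 libraries, so these counts give no further support. When each of the 6 libraries was left out in turn, 817 of the genes that rose (54.8%) and 1049 of those that fell (62.7%) stayed called every time. The count of genes that rose dropped to 927 without morula C. These calls come from 1 model over 30 libraries, polysome pools included, and a model of the 18 transcriptomes alone called 2767 genes higher and 2794 lower, 5561 in all, among which were 3109 of the 3163.

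**Figure D1:**
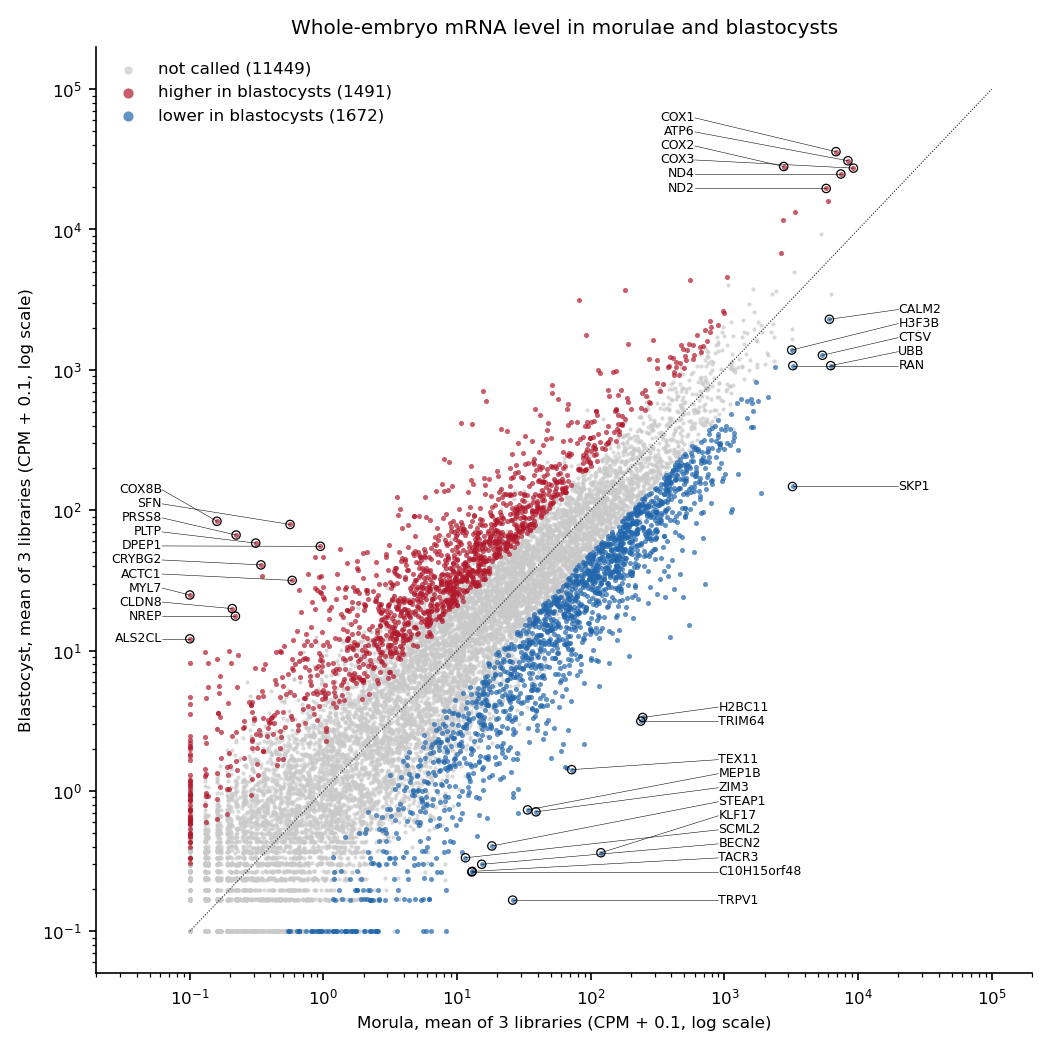
Mean level of each gene tested in the 3 morula libraries (x) and the 3 blastocyst libraries (y), both as CPM + 0.1 on log scales, with the dotted line marking equal levels. Red points are the 1491 genes called higher in blastocysts and blue points the 1672 called lower, and the circled genes are among those with the largest folds or the largest CPM differences, among them SKP1 and KLF17 far below the line.

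Most of what rose reached its highest level of the series in the blastocyst, against 24.9% of all genes tested. Of the 1491 genes that rose, 1108 (74.3%) had their highest stage mean in the blastocyst, and in 905 (60.7%) all 3 blastocyst libraries lay above all 15 other transcriptome libraries, compared with 14% of all genes tested. A further 338 of the genes that rose had been highest in the GV, MII or 2-cell stage. These stages held 7.65%, 6.77% and 8.25% of the peaks of genes that rose, against 14.1%, 16.2% and 14.1% over all genes tested. The 1672 genes that fell peaked in the morula for 473 (28.3%, against 13.4% of all genes tested), in the 8-cell embryo for 393 (23.5%, against 17.3%), in the MII oocyte for 379 (22.7%, against 16.2%), in the GV oocyte for 227 (13.6%, against 14.1%) and in the 2-cell embryo for 200 (12%, against 14.1%). The calls themselves keep the blastocyst from being the peak of a gene that fell and the morula from being that of a gene that rose. They also place the blastocysts above the morulae, which are 3 of the 15 other libraries, so the excess over 14% is partly fixed in advance. Over all genes tested, 3804 had all blastocyst libraries above all morula libraries, and 2049 had them above all 15 others.

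The genes with the largest rises had morula means below 1 CPM. MYL7, a myosin light chain of heart atria, had no count in any morula library and 10.3, 40.2 and 23.8 CPM in blastocysts A, B and C, at least 85.3-fold higher than a floor of 3 counts per morula library. ALS2CL was also at 0 in all 3 morula libraries and stood at 2.94, 20.3 and 12.8 CPM in the blastocysts, at least 41.4-fold higher. COX8B, a subunit of cytochrome c oxidase known from heart and muscle, had 2 counts in the morulae and 68.8, 67.998 and 113 CPM in the blastocysts, a ratio of 1329 (95% interval 367 to 10986) that covers counting error only.

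CLDN8, a claudin of tight junctions, had 3 morula counts and 9.702, 19.3 and 30.4 CPM in blastocysts, a ratio of 219 (95% interval 74.01 to 1066). PRSS8, the membrane serine protease prostasin of epithelia, went from 0.122 ± 0.106 to 66.5 ± 25.6 CPM (mean ± SD, n = 3 throughout), a log2 fold change of 8.96 ± 1.58 (SE), adjusted p = 4.66e-04. PLTP, which transfers phospholipids between lipoproteins, rose by 8.02 on the log2 scale, CRYBG2 by 7.43 and SFN, the epithelial 14-3-3 sigma protein, by 7.37. All 3 were below 1 CPM in every morula library and above 20 CPM in every blastocyst library. NREP reached 17.5 ± 6.91 CPM, ACTC1, the cardiac form of actin, 31.5 ± 11.7 CPM, and DPEP1, a membrane dipeptidase, 55.2 ± 27.1 CPM. Each of these calls held with any one of the 6 libraries left out, but DESeq2 in place of edgeR did not call MYL7 (adjusted p = 0.0914) or CLDN8 (adjusted p = 0.397).

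Among the genes with the largest falls, KLF17, a zinc finger factor of early human and bovine embryos, was at 92.95, 129 and 134 CPM in morulae A, B and C and had 3 counts in the blastocysts, a ratio of morula to blastocyst of 522 (95% interval 178 to 2531). TRPV1, the capsaicin-gated ion channel, had 1 blastocyst count after 18.5, 22.4 and 36.95 CPM, a ratio of 335 (95% interval 60.03 to 13265). TRIM64 went from 237 ± 106 to 3.04 ± 2.37 CPM, though it belongs to a family of near-identical copies between which reads can be split.

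H2BC11, an H2B histone gene of another such family, went from 244 ± 24.8 to 3.24 ± 1.41 CPM, a log2 fold change of -6.23. TACR3, the neurokinin B receptor, and C10H15orf48 each had 2 blastocyst counts, with ratios of 82.1 (95% interval 22.6 to 679.96) and 83.1 (95% interval 22.9 to 689). SCML2, a Polycomb group protein, had 3, with a ratio of 49.5 (95% interval 16.8 to 241). ZIM3, STEAP1 and MEP1B, the last a subunit of the metalloprotease meprin, fell with log2 fold changes of -5.87, -5.87 and -5.74. The calls of 2 others depended on single libraries. BECN2, a relative of the autophagy protein beclin, had 3 blastocyst counts and a ratio of 69.1 (95% interval 23.5 to 336), and its call was lost without blastocyst A (adjusted p = 0.117), blastocyst B (adjusted p = 0.138), blastocyst C (adjusted p = 0.0975), morula A (adjusted p = 0.177) or morula B (adjusted p = 0.0542). TEX11, a meiotic protein, had a log2 fold change of -5.71, and its call was lost without blastocyst A (adjusted p = 0.063), blastocyst B (adjusted p = 0.0532) or morula C (adjusted p = 0.0664).

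The largest shifts in share of reads were in the mitochondrial genome. COX1, COX2 and COX3, catalytic subunits of cytochrome c oxidase, held 7248, 8865 and 4376, 3167, 3299 and 1857 and 11076, 8762 and 7839 CPM in the 3 morulae and 26078, 48165 and 33224, 20550.2, 34897 and 28806 and 24528, 32226 and 25309 CPM in the 3 blastocysts. Of the 13 protein genes of that genome, a group set up after its values were seen, 10 rose, none fell and the log2 fold changes ran from 0.41 to 3.34 with a median of 1.76. ATP6 rose by 1.88, ND2 by 1.76 and ND4 by 1.74 on the log2 scale, and the values of ND4L, ND5 and ATP8 were 1.15, 0.57 and 0.41 without a call. Only the COX3 call among the 6 genes named here first was lost when 1 library was left out, without blastocyst B (adjusted p = 0.0571), morula B (adjusted p = 0.0609) or morula C (adjusted p = 0.076). On the falling side, UBB, a polyubiquitin gene, went from 6241 ± 399 to 1071 ± 239 CPM, and SKP1, a constant subunit of SCF ubiquitin ligases, from 3229.8 ± 721 to 147 ± 8.97 CPM. CTSV, a cysteine protease, went from 5408 ± 791 to 1270.01 ± 172 CPM, CALM2, a calmodulin, from 6100.1 ± 699 to 2291 ± 180.3 CPM, RAN, the GTPase of nuclear transport, from 3248 ± 202 to 1071 ± 134 CPM, and H3F3B, which encodes histone H3.3, from 3183 ± 389.6 to 1384 ± 159.6 CPM. UBB, CALM2 and H3F3B have close copies elsewhere in the genome, so the split of reads between them is uncertain.

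Trophectoderm regulators and products were among the genes that rose. The 4 pluripotency and epiblast genes that were called all fell, and NANOG was not called. Of 23 trophectoderm transcription factors, 7 rose (30.4%, against 10.2% of all genes tested) and 1 fell, with a median log2 fold change of 1.27. Of 14 trophoblast products and keratins 6 rose (42.9%) and none fell, with a median of 3.09. The model of the 18 transcriptomes alone called 9 of these 14 higher and 2 lower. GATA2 stood at 13.2, 17.2 and 8.19 CPM in morulae A, B and C and at 315, 472 and 438 CPM in blastocysts A, B and C, a log2 fold change of 4.99 ± 0.44 with adjusted p = 3.18e-08. GATA3, its partner in trophoblast, went from 8.59, 11.6 and 7.11 to 141, 156 and 148 CPM, a log2 fold change of 4.03 ± 0.51. The stages did not overlap for either gene. TFAP2A, an activator of trophoblast genes, had 0.187, 0.0894 and 0.108 CPM in the morulae and 3.53, 12.2 and 11.6 CPM in the blastocysts.

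KLF5 rose from 167 ± 25.8 to 714 ± 137 CPM, and the epithelial factors ELF3 and OVOL1 rose from 0.5796 ± 0.0984 to 18.8 ± 5.23 CPM and from 1.41 ± 1.53 to 19.4 ± 3.57 CPM. GRHL1, a grainyhead factor of epithelia, rose from 19.9 ± 1.38 to 191 ± 60.9 CPM, but its call was lost without morula B (adjusted p = 0.0525) or morula C (adjusted p = 0.0538). All 7 peaked in the blastocyst, and 6 of them lay above every other transcriptome library, against 74.3% and 60.7% of all genes that rose. TP63, a transcription factor of stratified epithelia, was the member that fell, from 2.899 ± 1.34 to 0.641 ± 0.301 CPM, a call lost without blastocyst A (adjusted p = 0.123), blastocyst B (adjusted p = 0.071), blastocyst C (adjusted p = 0.078), morula B (adjusted p = 0.0506) or morula C (adjusted p = 0.146). CDX2, the factor that maintains trophectoderm identity, had 4.01, 3.84 and 1.19 CPM in morulae and 7.94, 6.22 and 7.003 CPM in blastocysts. Its stages did not overlap, yet it was not called (log2 fold change 1.22 ± 0.60, adjusted p = 0.151), while the model of the 18 transcriptomes alone called it (log2 fold change 1.24, adjusted p = 0.0344). TEAD4, which acts upstream of CDX2 in the mouse, was at 30.1 ± 9.01 and 18.7 ± 2.97 CPM, without a call.

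The keratins that mark simple epithelium were among the genes that rose. KRT18 went from 88.1, 129 and 26.7 CPM to 3003, 3389 and 3115 CPM, a log2 fold change of 5.29 ± 0.65 with adjusted p = 5.04e-06, and its partner KRT8 from 109, 143 and 25.6 to 1579.97, 1836 and 1854 CPM. KRT19 rose from 8.41 ± 2.74 to 139 ± 50.9 CPM. PTGS2, the cyclooxygenase that starts prostaglandin synthesis, had 22.9, 15.9 and 10.7 CPM in morulae and 243, 835 and 711 CPM in blastocysts, with blastocyst A the lowest of the 3. IFNT, interferon tau, was at 1.03, 3.22 and 1.94 and 6.17, 42.9 and 20.4 CPM (log2 fold change 3.49 ± 1.21, adjusted p = 0.0468). It is a multicopy gene, and its call was lost without blastocyst B (adjusted p = 0.182), blastocyst C (adjusted p = 0.084), morula A (adjusted p = 0.147), morula B (adjusted p = 0.0866) or morula C (adjusted p = 0.134). PAG2, a pregnancy-associated glycoprotein from another multicopy family, rose from 0.766 ± 0.226 to 28.002 ± 11.8 CPM, a call lost without morula B (adjusted p = 0.0595) or morula C (adjusted p = 0.0622), and with DESeq2 (adjusted p = 0.0746).

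**Figure D2:**
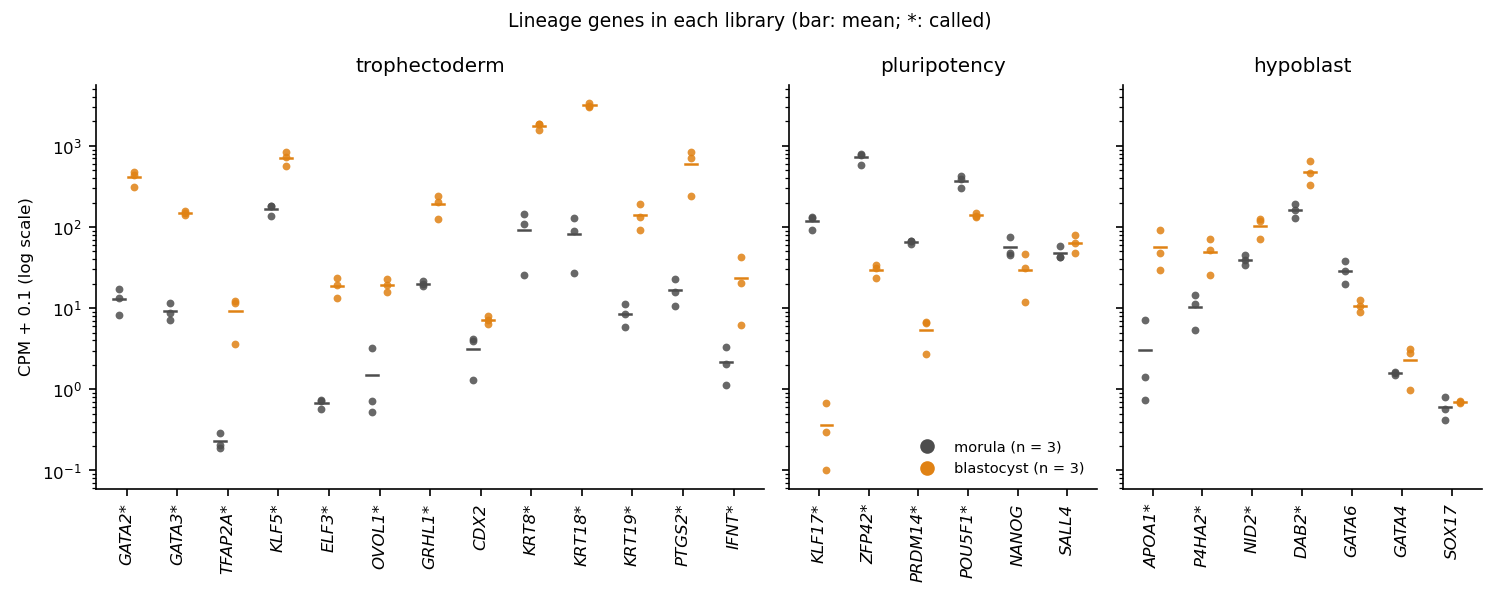
Level of lineage genes in each of the 3 morula (grey) and 3 blastocyst (orange) libraries as CPM + 0.1 on a log scale, with a bar at each mean and an asterisk on genes called between the stages. The blastocyst points of GATA2, GATA3 and the keratins lie above all morula points, those of KLF17, ZFP42, PRDM14 and POU5F1 lie below, and those of NANOG overlap with the morula points.

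Among 21 pluripotency and epiblast genes 4 fell (19%, against 11.4% of all genes tested) and none rose. The median log2 fold change was -0.91, or -0.48 with genes absent from 1 stage set to their bound. All 4 calls held with any 1 library left out. ZFP42, also called REX1, stood at 586, 771 and 804 CPM in the morulae and 31.2, 34.2 and 23.6 CPM in the blastocysts, a log2 fold change of -4.60 ± 0.70 with adjusted p = 4.35e-05. PRDM14, a germline and pluripotency regulator, went from 66.6, 61.95 and 67.9 to 2.65, 6.43 and 6.603 CPM. POU5F1, the factor OCT4, fell by less, from 431, 389 and 301 to 133, 138 and 148 CPM (log2 fold change -1.42 ± 0.33, adjusted p = 0.00267), and KLF17 is given above. NANOG, the epiblast homeobox factor, had 47.3, 45.1 and 75.96 CPM in morulae and 11.8, 46.4 and 31.01 CPM in blastocysts, with overlapping stages and adjusted p = 0.379. SALL4 was at 47.7 ± 9.04 and 63.7 ± 15.9 CPM, also without a call. Of 9 tested genes of 8-cell genome activation 2 fell, KLF17 and ZSCAN4 (22.2%, against 11.4% of all genes tested), and none rose. ZSCAN4, which marks a burst of activation transcripts, went from 64.1 ± 21.1 to 1.39 ± 0.617 CPM. Where POU5F1 and ZFP42 had their highest mean in the morula, KLF17 had it in the 8-cell embryo at 297 ± 103 CPM.

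Of 30 hypoblast genes 4 rose (13.3%, near the 10.2% of all genes tested) and none fell. The median log2 fold change was 0.67, or 0.51 with genes absent from 1 stage set to their bound. The model of the 18 transcriptomes alone called 8 of 27 higher and 2 lower. The 4 that rose in the model of 30 libraries did not include the defining factors. APOA1, an apolipoprotein of yolk sac endoderm, rose from 2.98 ± 3.48 to 56.05 ± 31.9 CPM, P4HA2, a collagen prolyl hydroxylase, from 10.3 ± 4.61 to 49.3 ± 22.3 CPM, and NID2, a basement membrane protein, from 39.2 ± 5.22 to 104 ± 29.01 CPM. The endocytic adaptor DAB2 rose from 160.3 ± 31.6 to 479 ± 157 CPM, and its call was lost without blastocyst B (adjusted p = 0.141), blastocyst C (adjusted p = 0.0745), morula A (adjusted p = 0.0949), morula B (adjusted p = 0.0702) or morula C (adjusted p = 0.135). GATA6, the earliest hypoblast factor, was lower in blastocysts at 10.6, 12.4 and 8.804 CPM than in morulae at 37.7, 28.97 and 20.04 CPM without reaching the threshold (adjusted p = 0.0759), and the model of the 18 transcriptomes called it lower (log2 fold change -1.41, adjusted p = 0.00336). GATA4 had 1.49, 1.52 and 1.401 and 0.882, 2.695 and 3.001 CPM, and SOX17 stayed below 1 CPM in all 6 libraries.

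**Figure D3:**
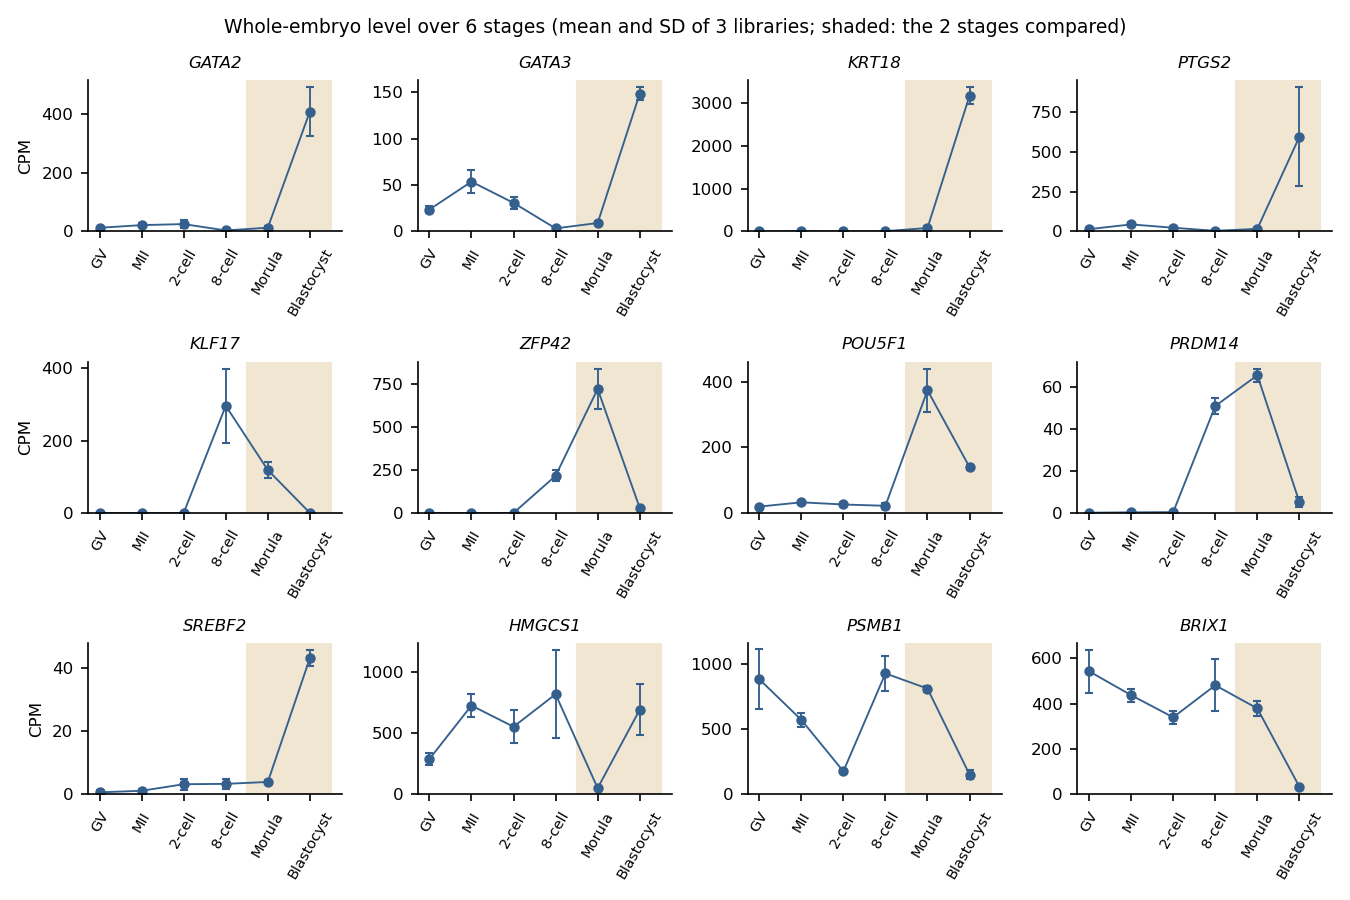
Levels of 12 genes over the 6 stages in CPM, as mean and SD of 3 libraries, with the morula and blastocyst shaded. GATA2 and KRT18 were low until the blastocyst, POU5F1 and ZFP42 were highest in the morula, and HMGCS1 was low in the morula between higher values on either side.

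Genes of junctions, polarity and the cell cortex were among those that rose. Of 22 adherens junction and desmosome genes 10 rose (45.5%) and none fell, with a median log2 fold change of 1.28, but 5 rose without morula C. The model of the 18 transcriptomes alone called 13 higher and 1 lower in this list. Of 32 tight junction and polarity genes 7 rose (21.9%) and 1 fell (3.12%), against 10.2% and 11.4% of all genes tested. EZR, or ezrin, which ties actin to apical microvilli, had 216, 178 and 149.6 CPM in the morulae and 2514, 4565 and 4013 CPM in the blastocysts, a log2 fold change of 4.35 ± 0.34 with adjusted p = 1.06e-08. TJP3, the tight junction scaffold ZO-3, rose from 6.12 ± 2.01 to 84.9 ± 6.95 CPM, and the claudin CLDN4 from 12.4 ± 2.27 to 105 ± 28.1 CPM. MARVELD2, or tricellulin, rose from 14.4 ± 6.77 to 52.5 ± 14.7 CPM, the atypical protein kinase PRKCZ from 20.8 ± 3.27 to 80.9 ± 23.3 CPM and the basolateral polarity protein LLGL2 from 8.06 ± 0.638 to 26.9 ± 9.34 CPM. MARVELD3 rose from 0.632 ± 0.205 to 4.52 ± 0.101 CPM, and its call was lost whichever library was left out (adjusted p 0.0558 to 0.115). CLDN10, a claudin that forms ion pores, fell from 150.5 ± 103 to 44.2 ± 9.11 CPM, a call lost without blastocyst B (adjusted p = 0.0571) or morula C (adjusted p = 0.156). OCLN, or occludin, was at 105 ± 18.5 and 85.5 ± 44.3 CPM without a call.

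JUP, or plakoglobin, the catenin shared by desmosomes and adherens junctions, rose from 12.7 ± 2.06 to 165 ± 17.1 CPM, and without morula C (adjusted p = 0.0537) its call was lost. CTNNB1, or beta-catenin, rose from 101 ± 32.95 to 428 ± 79.7 CPM, CTNND1, the p120 catenin, from 37.02 ± 3.21 to 125 ± 1.26 CPM, and NECTIN2 from 9.96 ± 2.87 to 67.6 ± 11.5 CPM. AFDN, or afadin, and PERP, a desmosomal membrane protein, rose by 1.15 and 1.25 on the log2 scale. The cadherin of this epithelium, CDH1, had 547, 449.8 and 491 CPM in morulae and 470.1, 613 and 651 CPM in blastocysts, overlapping and not called (log2 fold change 0.22 ± 0.34). Thus the catenins were called and their cadherin was not, a contrast between genes that was not itself tested.

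Of 68 genes of actin, integrins and matrix, 21 rose (30.9%) and 4 fell (5.88%), against 10.2% and 11.4% of all genes tested. The count that rose was 13 without morula B and 13 without morula C. ACTB, the main cytoplasmic actin, rose from 2847, 2639 and 2684 to 8427, 13246 and 13115 CPM, and MYH9, the heavy chain of non-muscle myosin IIA, from 119.8, 130.2 and 103 to 766, 1056 and 1019 CPM (log2 fold change 3.01 ± 0.37, adjusted p = 3.10e-06). The epithelial S100A14 rose from 189 ± 14.1 to 1532 ± 319 CPM and ANXA3, an annexin, from 3.67 ± 1.97 to 102 ± 47.1 CPM, whereas ANXA2 fell from 1586 ± 251 to 393 ± 91.4 CPM and S100A2 from 160.5 ± 30.1 to 44.3 ± 2.24 CPM. The other genes that fell were TPM2, a tropomyosin, with a log2 fold change of -1.97, and PLAUR, the urokinase receptor, with one of -3.35. The TPM2 call was lost without blastocyst A (adjusted p = 0.129), blastocyst C (adjusted p = 0.104), morula A (adjusted p = 0.123) or morula B (adjusted p = 0.0696).

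Of 28 genes of ion and water transport, 4 rose (14.3%) and 2 fell (7.14%), near the 10.2% and 11.4% of all genes tested. SLC9A3, an apical sodium-proton exchanger, went from 0.0933, 0 and 0.108 to 2.65, 9.12 and 7.803 CPM, a counting ratio of 108 (95% interval 29.2 to 909), and its scaffold SLC9A3R1 rose from 42.6, 45.7 and 26.9 to 465, 527 and 596 CPM. FXYD4, a regulator of the sodium pump, rose from 34.3 ± 11.6 to 148 ± 30.9 CPM, a call lost without morula A (adjusted p = 0.0595) or morula C (adjusted p = 0.0542). The water channel AQP3 rose from 65.2 ± 13.000 to 145 ± 23.8 CPM, and its call was lost without blastocyst A (adjusted p = 0.0899), blastocyst C (adjusted p = 0.0992), morula A (adjusted p = 0.0993), morula B (adjusted p = 0.0508) or morula C (adjusted p = 0.13). SLC12A2, a sodium-potassium-chloride cotransporter, fell from 53.3 ± 9.68 to 10.9 ± 1.604 CPM, and AQP11 fell from 32.4 ± 11.3 to 8.93 ± 3.23 CPM, the latter a call lost without blastocyst B (adjusted p = 0.0826), blastocyst C (adjusted p = 0.13), morula B (adjusted p = 0.0557) or morula C (adjusted p = 0.116). The count that rose was 2 without morula A or without morula C, and the count that fell was 1 without blastocyst B, blastocyst C, morula B or morula C. ATP1B1, a beta subunit of the sodium pump that drives cavity fluid, was at 13.1 ± 6.82 and 4.73 ± 0.298 CPM and was not called. The model of the 18 transcriptomes alone called it lower (log2 fold change -1.43, adjusted p = 0.00296).

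Of 36 nutrient transporters 8 rose (22.2%) and 1 fell (2.78%), against 10.2% and 11.4% of all genes tested. The count that rose was 5 without morula A or without morula C. SLC7A5, a carrier of large neutral amino acids, rose from 30.8 ± 4.37 to 170.2 ± 29.8 CPM, SLC16A7, a monocarboxylate carrier, from 0.787 ± 0.499 to 26.8 ± 13.7 CPM, and SLC43A2 from 4.76 ± 1.72 to 31.5 ± 0.962 CPM. The glucose carrier SLC2A1, or GLUT1, rose from 69.2 ± 24.3 to 243 ± 55.9 CPM, a call lost without morula A (adjusted p = 0.0658) or morula C (adjusted p = 0.0708). SLC7A6 was the member that fell, from 22.5 ± 4.11 to 8.33 ± 1.86 CPM, and its call was lost without blastocyst C (adjusted p = 0.0508). The count that fell was 0 without blastocyst C and 2 without blastocyst A, blastocyst B or morula B.

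Of 28 Hippo pathway genes 3 rose and 3 fell (10.7% each), shares near those of all genes tested, while the model of the 18 transcriptomes alone called 11 of 27 higher and 5 lower. AMOT, or angiomotin, which holds YAP out of the nucleus, rose from 9.68 ± 2.62 to 64.97 ± 7.71 CPM, and NF2, or merlin, from 17.5 ± 5.8999 to 56.7 ± 3.91 CPM, together with the kinase TAOK3, from 18.7 ± 0.995 to 78.3 ± 9.66 CPM. AJUBA, a LIM protein that restrains the pathway, had 3.83, 3.75 and 9.05 CPM in the morulae and 2 counts in the blastocysts, a ratio of 35.4 (95% interval 9.65 to 295). The kinase adaptor MOB1A fell from 51.9 ± 6.096 to 15.6 ± 1.904 CPM. VGLL4, which competes with YAP for TEAD, fell from 3.02 ± 1.104 to 1.204 ± 0.184 CPM, a call lost without blastocyst A (adjusted p = 0.0882), blastocyst B (adjusted p = 0.129), blastocyst C (adjusted p = 0.0763), morula A (adjusted p = 0.142) or morula B (adjusted p = 0.0836). YAP1 itself was at 4.61 ± 0.393 and 2.88 ± 1.79 CPM, not called.

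Of 37 FGF and MAPK genes 7 rose (18.9%) and 4 fell (10.8%), against 10.2% and 11.4% of all genes tested, with 4 rising without morula C. FGFR3, a receptor, rose from 8.89 ± 2.35 to 71.1 ± 6.098 CPM, and the kinase MAP2K1 from 28.6 ± 5.07 to 100.4 ± 16.5 CPM. DUSP5, a phosphatase of the pathway, fell from 10.2 ± 2.18 to 0.826 ± 0.632 CPM. The count that fell was 1 without blastocyst B or blastocyst C and 2 without morula A or morula B, and the calls of the other 3 were lost as follows. FGF10, a ligand, was at 0 in all 3 blastocysts after 1.3999, 0.983 and 1.08 CPM in the morulae, and its call was lost without blastocyst B (adjusted p = 0.0588) or blastocyst C (adjusted p = 0.0624). SPRED2, an inhibitor of the pathway, went from 8.56 ± 4.38 to 3.62 ± 1.96 CPM, a call lost without blastocyst B (adjusted p = 0.211), blastocyst C (adjusted p = 0.11), morula A (adjusted p = 0.254) or morula B (adjusted p = 0.062), and the receptor FGFR4 went from 38.6 ± 5.15 to 12.3 ± 2.28 CPM, a call lost whichever library was left out (adjusted p 0.0663 to 0.119). Of 45 genes of TGF-beta, BMP and WNT signalling 6 rose (13.3%) and 3 fell (6.67%), against 10.2% and 11.4% of all genes tested. WNT6, a ligand, rose from 1.13 ± 0.383 to 23.4 ± 6.71 CPM, SMAD1, a transducer of BMP signals, from 19.98 ± 1.99 to 119.6 ± 28.7 CPM, and LRP5, a WNT co-receptor, from 0.284 ± 0.0712 to 3.099 ± 0.913 CPM. The WNT inhibitor DKK1 fell from 39.5 ± 6.79 to 2.87 ± 1.73 CPM and the BMP target ID2 from 81.4 ± 8.696 to 18.5 ± 0.885 CPM. ACVR2A, an activin receptor, fell from 39.4 ± 6.92 to 12.8 ± 4.87 CPM, and its call was lost whichever library was left out (adjusted p 0.0532 to 0.146).

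Cholesterol synthesis and uptake was, of the 35 lists, the one with the largest share of rising genes, 16 of 27 (59.3%, against 10.2% of all genes tested), with 1 falling and a median log2 fold change of 1.75. HMGCS1, which makes the precursor of mevalonate, had 59.8, 40.9 and 53.98 CPM in the morulae and 459, 861 and 748 CPM in the blastocysts, a log2 fold change of 3.74 ± 0.54 with adjusted p = 1.99e-05. CYP51A1, a sterol demethylase, went from 9.43, 3.93 and 9.27 to 77.3, 195 and 189 CPM and MVD, which decarboxylates mevalonate pyrophosphate, from 7.75, 3.84 and 2.26 to 66.7, 101 and 103 CPM. The stages did not overlap for these 3. The rise also covered SQLE (2.94 on the log2 scale), LSS (3.18) and TM7SF2 (4.35) of the later steps. It covered the regulators of the pathway as well, with SREBF2, its transcription factor, rising from 3.95 ± 0.571 to 43.1 ± 2.52 CPM, SCAP, its escort, from 13.6 ± 4.33 to 54.01 ± 12.04 CPM, and INSIG1, its retention protein, from 3.35 ± 1.299 to 38.4 ± 12.1 CPM. STARD4, a carrier that moves cholesterol within the cell, was the member that fell, from 25.96 ± 8.05 to 1.58 ± 1.93 CPM. Between 13 and 15 of the list rose with 1 library left out, and 7 of the 27 were higher in polysomes, or 17 without morula gradient B. Of the 16, 14 had a higher mean in the 8-cell embryo than in the morula, as did 640 of all 1491 genes that rose. In the blastocyst 3 of the 16 exceeded all other libraries, as did 905 of the 1491. A call that compares the blastocyst with the morula favours genes with a low morula value, so these counts are a description. For HMGCS1 the 8-cell mean was 815 ± 359.7 CPM.

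Fatty acid genes moved in both directions. Of 32 genes 11 rose (34.4%) and 7 fell (21.9%), against 10.2% and 11.4% of all genes tested. FASN, fatty acid synthase, rose from 12.7 ± 7.13 to 208 ± 9.78 CPM, ACLY, which supplies its acetyl-CoA, from 113 ± 6.45 to 991 ± 299.8 CPM, and the desaturases SCD and FADS1 from 28.5 ± 4.78 to 299.6 ± 101 CPM and from 7.89 ± 0.684 to 137 ± 59.6 CPM. ELOVL5, an elongase, rose from 46.8 ± 9.81 to 374 ± 67.5 CPM. Among those that fell were PLIN2, the coat protein of lipid droplets, from 813 ± 41.2 to 164 ± 33.2 CPM, the fatty acid carrier FABP3, from 921 ± 257 to 283 ± 82.6 CPM, and the uptake receptor CD36, from 53.6 ± 7.52 to 8.696 ± 4.85 CPM. Another droplet coat, PLIN3, rose from 29.8 ± 12.3 to 171 ± 4.94 CPM. All 9 genes named here kept their calls with any 1 library left out.

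Of 34 genes of glycolysis and the pentose phosphate path 11 rose (32.4%) and 4 fell (11.8%), against 10.2% and 11.4% of all genes tested. Without morula C 6 rose, and without blastocyst A 2 fell. LDHA, which makes lactate, rose from 70.2 ± 7.68 to 314 ± 98.4 CPM, PKM, the last kinase of glycolysis, from 61.4 ± 16.2 to 313 ± 42.1 CPM, ENO1, an enolase, from 92.1 ± 13.2 to 260.3 ± 64.5 CPM, and the hexokinases HK1 and HKDC1 from 17.9 ± 2.45 to 65.8 ± 1.999 CPM and from 0.767 ± 0.592 to 46.4 ± 17.4 CPM. ALDOC, an aldolase, fell from 72.4 ± 12.3 to 17.5 ± 5.45 CPM, and RPIA, an isomerase of the pentose path, from 670.00 ± 41.1 to 217 ± 48.7 CPM. PGK1 and RPE, with log2 fold changes of -1.01 and -1.05, were the other calls among the genes that fell. The PGK1 call was lost without blastocyst A (adjusted p = 0.0636), blastocyst B (adjusted p = 0.0542) or morula C (adjusted p = 0.121), and that of RPE without blastocyst A (adjusted p = 0.0769), morula B (adjusted p = 0.053) or morula C (adjusted p = 0.0551).

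Of 36 genes of the integrated stress and unfolded protein responses 12 rose (33.3%) and 2 fell (5.56%), against 10.2% and 11.4% of all genes tested. Between 10 and 14 rose when 1 library was left out. The serine synthesis enzymes PHGDH, PSAT1 and PSPH, which ATF4 is known to control, rose from 1.71 ± 0.288 to 37.2 ± 14.95 CPM, from 3.48 ± 0.224 to 92.2 ± 34.2 CPM and from 13.2 ± 3.27 to 93.04 ± 22.5 CPM. ATF4 itself rose from 153 ± 8.33 to 524 ± 62.4 CPM, and HERPUD1, of endoplasmic reticulum degradation, from 6.95 ± 3.42 to 48.3 ± 13.5 CPM. DDIT3, or CHOP, fell from 137 ± 53.7 to 55.6 ± 16.3 CPM, a call lost without morula C (adjusted p = 0.0623), and XBP1 fell from 23.6 ± 3.82 to 6.096 ± 1.98 CPM. Of 37 lysosomal genes 8 rose (21.6%, against 10.2% of all genes tested). Among them LAMP1 rose by 2.16, NPC1, a cholesterol exporter, by 2.36 and the cathepsin CTSB by 1.72 on the log2 scale. LGMN, an asparaginyl protease, was the lysosomal gene that fell, with a log2 fold change of -1.03, and it passed below the fold limit without blastocyst B (log2 fold change -0.89) or morula A (log2 fold change -0.95).

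**Figure D4:**
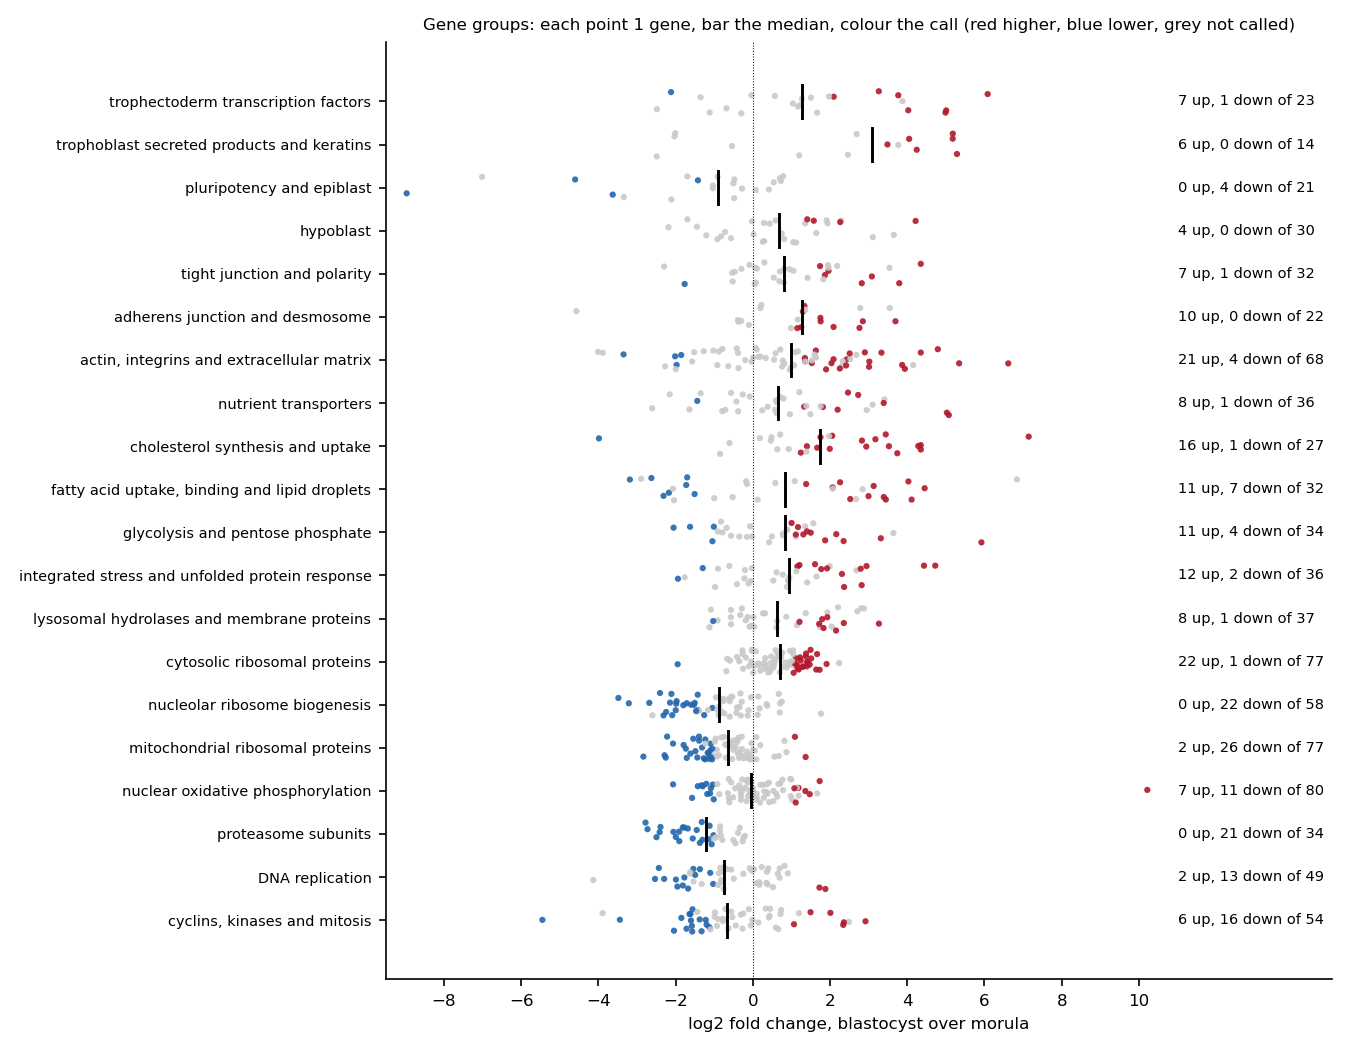
log2 fold change from morula to blastocyst of each tested gene in 20 gene groups, coloured by call, with a black bar at the group's median and the counts of calls at the right. Proteasome and nucleolar genes lie mostly to the left of 0, cholesterol and junction genes mostly to the right, and COX8B is the point above 10 among oxidative phosphorylation genes.

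Of 58 nucleolar genes of ribosome biogenesis 22 fell (37.9%, against 11.4% of all genes tested) and none rose, with a median log2 fold change of -0.88. The model of the 18 transcriptomes alone called 26 lower and 1 higher in this list. BRIX1, an assembly factor of the large subunit, had 373, 349 and 413 CPM in the morulae and 43.2, 34.8 and 23.8 CPM in the blastocysts, a log2 fold change of -3.48 ± 0.33 with adjusted p = 6.62e-08. NOP16 fell from 484 ± 16.96 to 52.2 ± 3.71 CPM, and NPM1, or nucleophosmin, from 743 ± 63.5 to 172 ± 48.9 CPM. In contrast, 22 of 77 cytosolic ribosomal protein genes rose (28.6%, against 10.2% of all genes tested) and 1 fell, with a median of 0.70. RPS28 rose from 314 ± 66.99 to 1180.5 ± 278 CPM, RPL13A from 394 ± 66.5 to 1229 ± 283 CPM, RPS2 from 982 ± 53.9 to 2605 ± 264 CPM and RPS18 from 986 ± 134 to 2555 ± 90.2 CPM. In all 22 the blastocyst libraries lay above the 15 other transcriptome libraries, against 60.7% of all genes that rose. But the count that rose was 8 without morula C, 12 without morula B or blastocyst C and 14 without morula A. In polysomes edgeR called 0 of the 77 higher, with 2 higher at an unadjusted p under 0.05, and DESeq2 also called 0, but 49 were called higher without morula gradient A. RPS4Y1 was the member that fell, from 564 ± 53.9 to 146 ± 28.3 CPM. These genes have many processed copies, so their counts are uncertain.

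Of 77 mitochondrial ribosomal protein genes 26 fell (33.8%) and 2 rose, with a median of -0.65. MRPS10 fell from 692 ± 61.5 to 97.02 ± 14.6 CPM and MRPL39 from 503 ± 50.5 to 103 ± 14.1 CPM, whereas MRPL4 rose from 19.2 ± 4.31 to 49.7 ± 10.4 CPM and MRPL10 from 37.2 ± 6.31 to 79.1 ± 3.54 CPM, the latter a call lost whichever library was left out (adjusted p 0.0512 to 0.121). Of 80 nuclear genes of oxidative phosphorylation 7 rose (8.75%) and 11 fell (13.8%), near the 10.2% and 11.4% of all genes tested. All 11 that fell had peaked in the morula, against 28.3% of all genes that fell. ATP5F1A, the alpha subunit of ATP synthase, fell from 1630.00 ± 26.8 to 389.6 ± 13.1 CPM and NDUFA9, of complex I, from 293 ± 17.5 to 98.7 ± 25.5 CPM, while SDHA, of complex II, rose from 108 ± 10.7 to 277 ± 9.903 CPM. The count that rose was 4 without blastocyst A or morula B, and the count that fell was 5 without blastocyst B. Genes of the mitochondrial genome and nuclear genes of the same complexes were thus called in different proportions, 10 of 13 rising against 7 of 80, a contrast that was not tested.

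Of 34 proteasome subunit genes 21 fell (61.8%, against 11.4% of all genes tested) and none rose, with a median log2 fold change of -1.23, and 19 to 22 fell with 1 library left out. PSMA6, of the alpha ring, had 924, 1049 and 1074 CPM in morulae and 196, 138 and 206 CPM in blastocysts, a log2 fold change of -2.50 ± 0.28 with adjusted p = 1.05e-06. PSMB1, of the beta ring, went from 807, 838 and 794 to 187, 114 and 157 CPM, and PSMC2, an ATPase of the regulatory cap, from 622, 628 and 731 to 126, 124 and 128 CPM. The stages did not overlap for these 3. The 21 included subunits of both the core and the cap. PSMD13, of the cap, had a log2 fold change of -2.78. Among the 21, 14 had peaked in the morula, 4 in the 8-cell embryo and 3 before it. Of all genes that fell, 28.3% had peaked in the morula and 23.5% in the 8-cell embryo. Of 38 chaperonin and heat shock genes 5 fell (13.2%) and 2 rose (5.26%), against 11.4% and 10.2% of all genes tested. CCT8, CCT3, CCT7 and TCP1, all subunits of the cytosolic chaperonin, fell with log2 fold changes of -1.68, -1.31, -1.18 and -1.17, and HSPA9, the mitochondrial HSP70, with one of -2.45. HSPA1A, the inducible HSP70, rose from 14.5 ± 2.89 to 61.996 ± 27.9 CPM, and HSPB11 by 1.44 on the log2 scale, a call lost without blastocyst A (adjusted p = 0.396), blastocyst C (adjusted p = 0.0531), morula A (adjusted p = 0.13), morula B (adjusted p = 0.0968) or morula C (adjusted p = 0.0622). The count of this list that rose was 1 without blastocyst A, morula A or morula C.

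Part of the replication and mitosis genes fell, and the cell cycle inhibitors p27 and p21 rose. Of 49 DNA replication genes 13 fell (26.5%) and 2 rose (4.08%). Of 54 genes of cyclins, kinases and mitosis 16 fell (29.6%) and 6 rose (11.1%). Over all genes tested 11.4% fell and 10.2% rose. PCNA, the sliding clamp, fell from 769 ± 60.6 to 240.5 ± 28.98 CPM, MCM6, of the helicase, from 518 ± 82.1 to 95.8 ± 11.6 CPM, and ORC6, of the origin complex, from 252 ± 9.61 to 51.2 ± 9.75 CPM. The members that rose were POLD1, a polymerase subunit, from 19.4 ± 6.86 to 64.2 ± 13.8 CPM, and LIG1, which joins Okazaki fragments, from 44.1 ± 17.5 to 162 ± 9.84 CPM. Of the mitotic genes CCNA1, the germline cyclin A, fell from 88.9 ± 11.6 to 2.06 ± 0.779 CPM, MAD2L1, of the spindle checkpoint, from 688 ± 139 to 63.2 ± 2.91 CPM, and CCNB1, cyclin B1, from 887 ± 65.9 to 269.97 ± 89.004 CPM. CDKN1B, the inhibitor p27, rose from 5.97, 7.15 and 10.99 to 56.4, 58.05 and 67.8 CPM (log2 fold change 2.92 ± 0.77, adjusted p = 0.00737), and CDKN1A, the inhibitor p21, from 3.55, 3.13 and 4.42 to 18.8, 17.8 and 19.6 CPM. CCND3, a G1 cyclin, rose from 8.21 ± 4.13 to 42.2 ± 10.2 CPM.

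Of 38 genes of cell death and its control 7 rose and 7 fell (18.4% each), against 10.2% and 11.4% of all genes tested. BAK1, a pore former of apoptosis, rose from 10.4 ± 2.51 to 59.03 ± 5.54 CPM, and PMAIP1, or NOXA, fell from 24.9 ± 1.97 to 1.95 ± 0.946 CPM. Of 25 genes of DNA methylation and histone variants 6 rose (24%) and 2 fell (8%), against 10.2% and 11.4% of all genes tested. DNMT3A and DNMT3B, which set new methylation, rose from 70.5, 74.7 and 66.7 to 359, 483 and 434 CPM and from 3.17, 4.202 and 1.51 to 18.8, 24.3 and 20.4 CPM, while TET1, which oxidises it, fell from 568, 569.8 and 714 to 128, 237 and 157 CPM. TDG, a glycosylase that removes the oxidised bases, rose from 5.66 ± 2.08 to 50.7 ± 10.1 CPM, UHRF1, of maintenance methylation, from 6.17 ± 3.31 to 27.7 ± 9.18 CPM, and KDM6B, a histone H3 demethylase, from 0.643 ± 0.6098 to 12.98 ± 4.83 CPM. H3F3B is given above. Of 21 imprinted genes 3 rose (14.3%) and 2 fell (9.52%), against 10.2% and 11.4% of all genes tested. IGF2R, GNAS and TSSC4 rose by 1.82, 2.02 and 1.57 on the log2 scale, and PHLDA2 and SNRPN fell with log2 fold changes of -2.37 and -1.62. The TSSC4 call was lost without blastocyst A (adjusted p = 0.0505), morula B (adjusted p = 0.0635) or morula C (adjusted p = 0.099).

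Of 38 interferon-stimulated genes 3 rose (7.89%) and 1 fell (2.63%), against 10.2% and 11.4% of all genes tested. The median log2 fold change was -0.81, or -0.74 with genes absent from 1 stage set to their bound. The model of the 18 transcriptomes alone called 3 higher and 9 lower, of 37. IFI35 rose from 17.96 ± 3.4003 to 92.1 ± 16.4 CPM. IRF7 and IRF9 rose by 1.09 and 1.74 on the log2 scale, the IRF7 call being lost without blastocyst A (adjusted p = 0.0768), blastocyst C (adjusted p = 0.195), morula A (adjusted p = 0.0709), morula B (adjusted p = 0.11) or morula C (adjusted p = 0.142) and the IRF9 call without blastocyst A (adjusted p = 0.0551), morula A (adjusted p = 0.0783) or morula B (adjusted p = 0.0874). The count that rose was 1 without blastocyst A, morula A or morula B, and the count that fell was 2 without blastocyst B or morula A. Of 262 zinc finger (ZNF) genes 31 fell (11.8%) and 9 rose (3.44%), against 11.4% and 10.2% of all genes tested. The model of the 18 transcriptomes alone called 81 of 243 lower and 29 higher, and in the model of 30 libraries 5 rose without morula B or without morula C. ZNF394 fell from 314 ± 109 to 25.1 ± 3.58 CPM and ZNF207, of spindle assembly, from 425 ± 61.8 to 69.6 ± 5.65 CPM.

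Of the 32 oocyte and maternal effect genes 3 rose (9.38%) and 1 fell (3.12%), against 10.2% and 11.4% of all genes tested. The count that rose was 1 without blastocyst A, the library rich in such transcripts, and likewise without morula B or morula C. ZP4, of the zona pellucida, had 1.96, 2.77 and 2.37 CPM in the morulae and 25.9, 5.18 and 5.402 CPM in the blastocysts, with only A above 10 CPM. Its call was lost without blastocyst A (adjusted p = 0.36), morula A (adjusted p = 0.111), morula B (adjusted p = 0.0814) or morula C (adjusted p = 0.0983). KPNA7, an oocyte importin, had 10.5, 3.58 and 5.17 and 52.04, 4.35 and 12.8 CPM, and its call was lost without blastocyst A (adjusted p = 0.664), morula B (adjusted p = 0.15) or morula C (adjusted p = 0.123). KIT, the receptor of stem cell factor, rose from 24.4, 78.7 and 23.2 to 163, 153 and 162 CPM and kept its call whichever library was left out. RSPO2, a WNT enhancer, fell from 8.98 ± 4.6997 to 3.496 ± 3.597 CPM, a call lost without blastocyst B (adjusted p = 0.188), blastocyst C (adjusted p = 0.188) or morula B (adjusted p = 0.225). Of the marker genes of other cells, FSHR, CYP11A1 and STAR rose within the cumulus and granulosa list, in which 10 of the 13 tested were not called. These 3 were 23.1% of the 13, against 10.2% of all genes tested. Without overlap between the stages, 5 of the 13 lay higher and 1 lower in blastocysts, as did 3804 and 4257 of all 14612 genes tested. The 5 higher ones were these 3 genes with LHCGR and HSD3B1. LHCGR had 12.1, 12.6 and 15.65 CPM of the library total in morulae and 20.2, 36.2 and 25.3 CPM in blastocysts. HSD3B1 had 3.55, 3.09 and 1.59 CPM in morulae and 6.42, 15.5 and 14.8 CPM in blastocysts. The lower one was TNFAIP6, at 2.33, 2.22 and 2.50 CPM of the library total in morulae and 1.22, 0.402 and 0.381 CPM in blastocysts. CYP11A1, which starts steroid synthesis, went from 0.467, 0.536 and 0 to 4.998, 7.67 and 5.602 CPM and STAR, its cholesterol supplier, from 7.19, 8.49 and 6.895 to 14.99, 16.999 and 18.01 CPM. FSHR, the follicle-stimulating hormone receptor, had 1 count in the morulae and 0.294, 2.902 and 3.802 CPM in the blastocysts, a call lost without morula A (adjusted p = 0.0541) or morula C (adjusted p = 0.0574). No sperm marker was called. Of the blood list HBA fell from 121 ± 16.8 to 24.6 ± 9.45 CPM and LYZ rose from 20.2 ± 3.91 to 48.3 ± 19.8 CPM, the LYZ call being lost without blastocyst B (adjusted p = 0.138), morula A (adjusted p = 0.0753) or morula C (adjusted p = 0.0515). Without blastocyst A, 2 genes of the blood list fell.

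The same stages were compared in polysomes, taken as the summed counts of the heavy gradient fractions F8, F9 and F10 in 2 gradients per stage. There 846 genes were higher in blastocysts (5.79% of those tested) and 1188 lower (8.13%). With 2 gradients a side these counts moved widely, from 584 to 1697 higher and from 449 to 1468 lower when 1 gradient was left out, with 1697 higher without morula gradient B and 449 lower without blastocyst gradient B. Of the 1491 genes that rose in whole embryos 195 (13.1%) were also higher and 50 (3.35%) were lower in polysomes, and of the 1672 that fell 319 (19.1%) were also lower and 39 (2.33%) higher. Across the 14612 genes, which are not independent replicates, the changes in the 2 readouts had a Pearson correlation of 0.208 and a Spearman correlation of 0.232.

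Several genes with the strongest whole-embryo rises were also loaded on blastocyst polysomes. PTGS2 had 9.49 and 10.3 CPM in the polysomes of morula gradients A and B and 108 and 144 CPM in those of the blastocyst gradients, a polysome log2 fold change of 3.67 with adjusted p = 0.00118, and ANXA3 went from 0.0482 and 1.12 to 39.4 and 38.5 CPM. Both kept their polysome calls with any 1 gradient left out. KRT18 went from 969 and 1602 to 9498 and 7118 CPM there (adjusted p = 0.0149), a call lost without blastocyst gradient A (adjusted p = 0.0506) or morula gradient A (adjusted p = 0.0643). HKDC1 had 0 and 0.4601 and 4.79 and 11.4 CPM, a call lost without blastocyst gradient B (adjusted p = 0.0651) or morula gradient A (adjusted p = 0.0665). EZR had 198 and 647 and 1028 and 909.95 CPM, a call lost without blastocyst gradient A (adjusted p = 0.112), blastocyst gradient B (adjusted p = 0.0745) or morula gradient A (adjusted p = 0.246). SLC9A3 was at 0 and 0 and 8.57 and 0.0851 CPM, with nearly all of its polysome counts in blastocyst gradient A. The trophoblast list had 5 of 14 members higher in polysomes, with 3 without blastocyst or morula gradient A and 9 without morula gradient B. The trophectoderm factor list had 3 of 23, with 0 without morula gradient A and 6 without morula gradient B. On the falling side, KLF17 went from 46.8 and 99.8 to 1.52 and 0.255 CPM in polysomes and AJUBA from 19.6 and 22.2 to 0.218 and 0.0426 CPM, both calls holding with any 1 gradient left out. CCNA1 went from 41.98 and 48.5 to 10.2 and 13.4 CPM, a call lost without blastocyst gradient A (adjusted p = 0.061). Of the proteasome genes 9 were lower in polysomes, 4 without blastocyst gradient A and 1 without blastocyst gradient B.

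**Figure D5:**
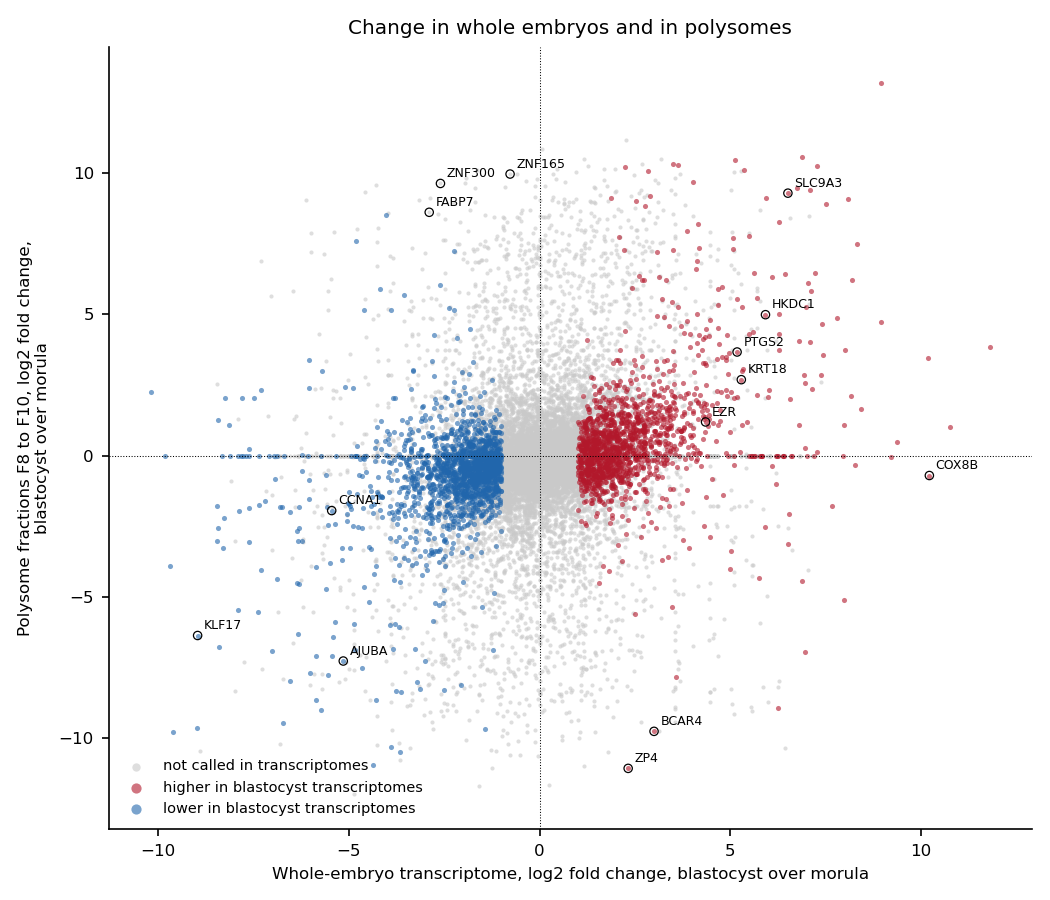
log2 fold change from morula to blastocyst in whole embryos (x) and in polysome fractions F8 to F10 (y) for each gene tested, coloured by the whole-embryo call. KRT18, PTGS2 and SLC9A3 lie in the upper right, KLF17 and AJUBA in the lower left, and ZP4 and BCAR4 in the lower right. Fitted values of genes absent from 1 stage, such as the polysome values of ZP4 and BCAR4, depend on the prior count.

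The difference between the polysome and the whole-embryo change passed an adjusted p of 0.05 for 1795 genes (12.3% of those tested), and for 1009 to 2575 genes when 1 gradient was left out, the lowest without blastocyst gradient B. Of the 32 oocyte genes 17 were lower in blastocyst polysomes, against 8.13% of all genes tested, and none was higher. The count was 7 without morula gradient B, the morula gradient with more of these transcripts, and 11 without blastocyst gradient B. Over all genes the count that was lower went from 1188 to 1127 without morula gradient B and to 449 without blastocyst gradient B. The cause was not tested. COX8B, which had risen in whole embryos, was at 4.34 and 0 CPM in the polysomes of the morula gradients and at 0 and 2.64 CPM in those of the blastocyst gradients. The difference between its fitted log2 changes in the readouts was -10.9, adjusted p = 0.00746, a size that depends on the prior count because the morula transcriptomes held 2 counts. It rested on morula gradient A, without which the fitted difference was -2.63 (adjusted p = 1.0). In whole embryos both FABP7, a brain type fatty acid carrier, and ZNF300 were at lower means in blastocysts, at 10.6 ± 2.06 and 1.41 ± 0.215 CPM and at 15.8 ± 5.11 and 2.59 ± 0.526 CPM, without a call.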

How the data were processed

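The authors made libraries with SMART-Seq v4 and Nextera XT kits, which do not mark strand, and deposited one table of estimated counts per gene symbol from Salmon for 138 libraries. The paper names the Ensembl ARS-UCD1.2 genome and the submitters' notes UMD3.1, so no coordinates are given. The version of Salmon is not given in the sources used here. Genes with close copies or antisense partners cannot be told apart with certainty.

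Estimated counts were rounded (13.2% of the values of the 6 transcriptomes were not whole). F8, F9 and F10 were summed per gradient, and 18 transcriptomes and 12 such polysome pools were fitted in 1 model with 12 groups in edgeR 4.0.16 (R 4.3.3) with filterByExpr, TMM and the quasi-likelihood F test, two-sided, with Benjamini-Hochberg adjustment over 14612 genes. A call needs an adjusted p below 0.05 and a fold above 2, and a difference between readouts the p alone. The ± after a log2 fold change is its SE, and after a mean its SD. Ratios of low counts have exact 95% binomial intervals, which cover counting error only. Scripts were tested on simulated data. Alternatives included DESeq2 1.42.0, other scaling and filters, thinning, fewer libraries, a replicate block and leaving out each library.

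Named genes were the 12 largest folds each way among calls without overlap and with at least 10 CPM in the higher stage, the 6 largest CPM differences each way, defining and most changed members of 35 gene lists, and the 4 largest differences between readouts each way. The comparison, lists and rule were chosen with earlier results of these data known, so the lists give no independent support. Of 1555 list entries 1508 were in the table, 6 of them by synonym. Some genes that the rule names are not reported here. Other gradient fractions were not used here.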

Additional observations from a re-analysis of the deposited data

Results flagged for a closer look

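For 8 genes the change from morula to blastocyst differed most between polysomes and whole embryos, by a test of the difference itself in the model of 30 libraries. The sizes are differences of fitted log2 changes, and they depend on the prior count wherever a stage held no reads.

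Of the 4 with the largest difference above 0, ZNF300 had 12.2 (adjusted p = 0.00367), with 0 and 0 CPM in the morula polysomes and 0 and 10.98 CPM in the blastocyst polysomes. FABP7 had 11.5 (adjusted p = 0.0104), with 0 and 0 CPM in morula gradients A and B and 2.13 and 3.28 CPM in blastocyst gradients A and B. FCRLB had 10.8 (adjusted p = 0.00989), with 0 and 0 CPM in morula gradients A and B and 7.31 and 18.5 CPM in blastocyst gradients A and B, and it had 7 counts in all morula transcriptomes and 3 in all blastocyst transcriptomes. ZNF165 had 10.7 (adjusted p = 0.00531), with 0 and 0 CPM in morula gradients A and B and 8.14 and 5.703 CPM in blastocyst gradients A and B.

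Of the 4 below 0, ZP4 had -13.4 (adjusted p = 2.33e-04), with 0.434 and 28.9 CPM in the morula polysomes and 0 and 0 CPM in the blastocyst polysomes, so that nearly all of its polysome reads came from morula gradient B. BCAR4, a gene of the bovine oocyte, had -12.7 (adjusted p = 5.78e-04), with 1.01 and 10.7 CPM in morula gradients A and B and 0 and 0 CPM in blastocyst gradients A and B. In whole embryos BCAR4 stood at 5.04, 4.02 and 2.801 CPM in morulae and 84.4, 1.24 and 11.005 CPM in blastocysts, and its call there was lost without blastocyst A (adjusted p = 0.573) or morula C (adjusted p = 0.0554). LRRC15 had -12.1 (adjusted p = 0.00762), with 0 and 27.7 CPM in morula gradients A and B and 0 and 0 CPM in blastocyst gradients A and B, and COX8B had -10.9 (adjusted p = 0.00746), with 4.34 and 0 CPM in morula gradients A and B and 0 and 2.64 CPM in blastocyst gradients A and B.

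The difference was lost for ZNF300 without blastocyst gradient B (2.59, adjusted p = 1.0), for COX8B without morula gradient A (-2.63, adjusted p = 1.0), and for LRRC15 without morula gradient B (-1.17, adjusted p = 1.0) or without blastocyst transcriptome B (-10.9, adjusted p = 0.123).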

How the results depend on the processing

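The counts of genes called moved with the libraries in the model. With the 18 transcriptomes alone 2767 genes were higher and 2794 lower in blastocysts, and with the 6 morula and blastocyst transcriptomes alone 2459 and 2530, over 13264 and 10606 genes tested. Leaving out 1 library gave 927 (without morula C) to 1254 genes higher and 1239 to 1446 lower. Leaving out 1 library or gradient gave 584 to 1697 (without morula gradient B) higher and 449 (without blastocyst gradient B) to 1468 lower in polysomes, and 1009 (without blastocyst gradient B) to 2575 differences between the readouts. DESeq2 called 1335 genes higher in polysomes and 2696 differences, and thinning to the smallest library left 737 genes lower in polysomes. The causes were not tested. The edgeR likelihood ratio test, the size factors of DESeq2 in edgeR, library totals in place of TMM, and both other filters on low counts kept all 5 counts within 1.5 times. Library totals moved the log2 fold change of the median gene by -0.121, with 1268 genes higher and 1863 lower, and 8 of the 213 called genes named here lost their calls under it.

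With the letter as a replicate block, 1390 genes were higher and 1597 lower in whole embryos and 640 and 858 in polysomes, with 1424 differences, and 11 of the 213 called genes named here lost their calls. The deviations of same-letter libraries from their stage means correlated at 0.157, 0.0580 and 0.0327, and those of libraries with other letters at -0.160 to 0.107. Morulae A and B correlated best with the blastocyst library of their own letter, and morula C with blastocyst B.

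Of the 213 called genes named here, 176 kept their calls whichever of the 6 libraries was left out and 191 kept them under every other alternative, and none changed sign. Depth limits low values, as 3 counts stand for up to 0.918 CPM in blastocyst A.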
